A study of Mus musculus with 16 samples.

Results

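The data are ATAC-seq peak lists of 4 wild-type (WT) memory T cell (TM) libraries and 4 WT effector T cell (TE) libraries of mouse CD8+ T cells, 8 of the 16 libraries of the series. They were chosen by the title of each sample, and only peaks on the 19 autosomes were used. The 8 lists held 159224 autosomal peaks of 628947 in all 16 libraries. Both groups carry the genotype TPdh+/+, and the remaining 8 libraries are TE and TM cells of TPdh-/- mice, in which Cre driven by CD4 deletes Pdha1. Whether the WT mice carried Cre or the floxed allele is not given in the sources used here. Per the study's methods, male and female mice of 8 to 12 weeks were used, and OT-I cells, whose T cell receptor recognises a peptide of ovalbumin, were activated with that peptide for 3 days. They were then cultured for 4 days with 10 ng/mL of IL-2 to give TE or of IL-15 to give TM. Both are therefore products of a culture and not cells taken from an infected animal. The comparison asks where open chromatin differs between the cell types when the pyruvate dehydrogenase complex is intact.

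ATAC-seq uses a transposase that inserts adapters where DNA is not covered by nucleosomes, so stacks of fragments mark accessible DNA. Promoters of genes that nearly all cells use are usually open in every cell type, are rich in CpG, and carry motifs of the KLF/SP, ETS, NFY and NRF1 factors. Sites away from promoters, many of them enhancers, differ more between cell types. In T cells such sites often carry motifs of AP-1 and RUNX factors, and TCF1, FOXO and T-bet motifs are known for memory and effector programmes. Effector CD8+ T cells divide rapidly and make granzymes and cytokines, whereas memory cells divide slowly, survive long and rely more on fatty acid oxidation.

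A peak is a stretch of the genome where a library held more fragments than its background, and its summit is the base with the tallest stack. Overlapping peaks of the 8 libraries were merged into regions. A region was called effector-only when all 4 TE and no TM library had a peak in it, and memory-only in the opposite case. Since long lists hold more regions, the same was done after cutting each list to its 2270 best autosomal peaks by −log10 q-value, as many as TE replicate 3 had in all. The sequences below carry the regions that the results turn on. Each is the RefSeq GRCm38 plus strand, 5′ to 3′, over 151 bp centred on the summit, with matches to the motifs searched in capitals. Cenpf, Mad2l1 and Hmgcs1 are promoters that were effector-only in the equal-sized lists, and Litaf, Pcnx2 and Lmbrd1 are all of the memory-only regions.

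Cenpf (chr1:189688180-189688330): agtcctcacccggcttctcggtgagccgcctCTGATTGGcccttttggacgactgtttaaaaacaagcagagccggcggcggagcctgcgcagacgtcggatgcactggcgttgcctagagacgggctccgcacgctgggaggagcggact
Mad2l1 (chr6:66535228-66535378): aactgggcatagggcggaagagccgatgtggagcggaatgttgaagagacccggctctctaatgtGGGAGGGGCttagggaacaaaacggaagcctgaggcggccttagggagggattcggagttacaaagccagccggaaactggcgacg
Hmgcs1 (chr13:119690212-119690362): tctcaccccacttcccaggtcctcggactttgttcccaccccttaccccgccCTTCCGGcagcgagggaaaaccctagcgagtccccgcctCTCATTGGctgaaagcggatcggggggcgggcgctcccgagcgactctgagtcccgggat
Litaf (chr16:10975047-10975197): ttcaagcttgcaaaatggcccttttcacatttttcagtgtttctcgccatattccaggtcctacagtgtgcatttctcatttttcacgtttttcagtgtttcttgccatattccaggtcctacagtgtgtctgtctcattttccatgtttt
Pcnx2 (chr8:125779040-125779190): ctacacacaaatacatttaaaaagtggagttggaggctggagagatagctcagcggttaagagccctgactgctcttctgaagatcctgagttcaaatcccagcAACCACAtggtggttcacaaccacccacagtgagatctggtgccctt
Lmbrd1 (chr1:24759608-24759758): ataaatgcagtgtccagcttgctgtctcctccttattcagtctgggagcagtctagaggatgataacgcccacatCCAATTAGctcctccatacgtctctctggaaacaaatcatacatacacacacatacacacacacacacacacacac

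In these windows the capitals mark NFY (CCAATNNG) in Cenpf, Hmgcs1 and Lmbrd1, KLF/SP (GGGNGGGGC) in Mad2l1, ETS (CCGGAAG) in Hmgcs1, and RUNX (TGTGGTT) in Pcnx2, on either strand. Among 200 bp windows of the autosomes, 6.18% held NFY, 1.12% KLF/SP, 0.578% ETS and 4.73% RUNX. The effector-only promoters were rich in G and C, with 58.3% in Mad2l1, 63.6% in Cenpf and 66.2% in Hmgcs1. The Litaf, Pcnx2 and Lmbrd1 windows held 39.7%, 48.3% and 45.7%. The Litaf window repeats itself. Shifted by 59 bp, 75% of the 92 bases compared matched. A run of 60 bases was identical to sequence under at least 1 region at the start of chromosome 9 that all 8 libraries held. In the other sequences shown, the longest such run was 9 bases.

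The groups differed in depth before any region was compared. Background coverage, in fragments per base, was solved from the fold enrichment and p-value of each peak and stands for depth here, since reads were not analysed. It was 1.13, 0.636, 1.42 and 1.55 in TE replicates 1 to 4 and 0.355, 0.354, 0.572 and 0.364 in TM, so that the groups did not overlap (exact permutation test, two-sided p = 0.0286, the smallest that 4 against 4 can give). Depth and cell type cannot be told apart in these 8 libraries. The nearest in depth are TE replicate 2 and TM replicate 3, and their values are given beside the main results on annotation, repeats, AP-1 and RUNX. Replicates carry numbers in the titles. The study states that its measurements came from discrete samples and gives 4 per condition for ATAC-seq of TM cells. It does not say whether these libraries are separate animals or cultures, so that p-values rest only on the spread between these libraries.

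Numbers of peaks and of promoter peaks overlapped between the groups, while the share of promoters did not. TM lists held 53626, 23453, 13039 and 34263 autosomal peaks, against 8538, 18783, 2270 and 5252 in TE. The highest TE library lay above the lowest TM library. The difference of 2.05 on the log2 scale did not pass the test (exact permutation test, p = 0.0571). Among peaks with −log10 q of at least 5 it was 0.65 (exact permutation test, p = 0.429). A promoter peak is one with its summit within 1000 bp of an annotated start. TE had 4711, 5372, 1657 and 3734 of them and TM 7417, 2208, 1250 and 5323, which overlap widely (exact permutation test, p = 0.886). Away from promoters there were 4842 ± 5871 (SD, n = 4) in TE and 27046 ± 14574 (SD, n = 4) in TM, which also did not pass (exact permutation test, p = 0.0571). Promoters made up 55.2, 28.6, 73.0 and 71.1% of the TE lists and 13.8, 9.41, 9.59 and 15.5% of the TM lists. Each TE library lay above each TM library (difference of -44.9 percentage points, exact permutation test, p = 0.0286). Without any one of the 4 TM replicates the p was 0.0571 (exact permutation test).

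The difference was also present in equal-sized lists. The share of promoters was 80.4, 63.1, 73.0 and 81.9% in TE and 25.0, 8.81, 9.03 and 19.1% in TM, a mean of 74.6% ± 8.59 (SD, n = 4) against 15.5% ± 7.95 (SD, n = 4; exact permutation test, p = 0.0286). Starts and the 1000 bp on each side cover 6.28% of the autosomes. In TE replicate 2 and TM replicate 3, the libraries of most similar depth, the shares were 63.1 and 9.03%. Of 9 measures of annotation and sequence compared between the lists, 7 differed without overlap of the groups (exact permutation test, Benjamini-Hochberg adjusted p = 0.0367 for each). Protein-coding promoters fell from 72.1% in TE to 13.3% in TM, introns rose from 11.1 to 35.6%, intergenic summits from 13.7 to 47.4%, and exons from 0.672 to 1.45%. The GC content around summits was 60.8% ± 1.93 in TE and 47.1% ± 1.65 in TM (SD, n = 4), with 13.7 and 3.12 CpG in 200 bp. In TE replicate 2 and TM replicate 3, introns made up 16.1 and 39.6%, intergenic summits made up 20.2 and 49.6% and GC content was 58.3 and 45.9%. Promoters of other genes (2.44 and 2.2%) and the median width of peaks (286 and 254 bp) did not pass the test.

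**Figure D1:**
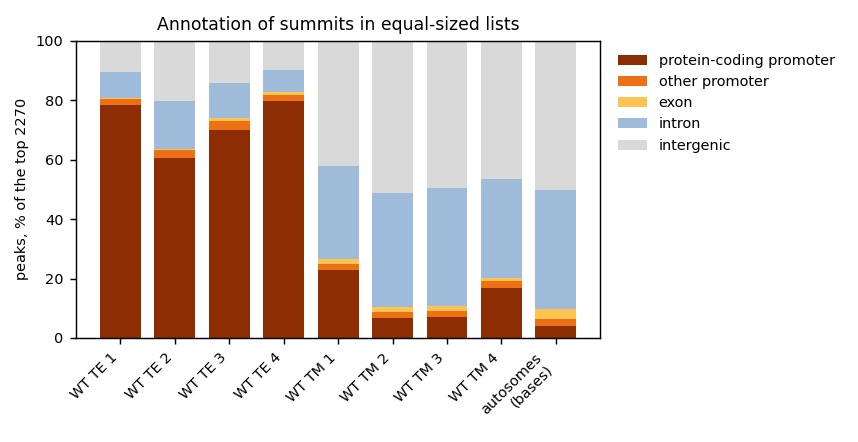
Share of the top 2270 peaks of each library, in percent, by what the annotation holds at the summit, for 4 TE and 4 TM libraries and for the bases of the autosomes. Promoter classes fill 63.1 to 81.9% of the bars of TE and 8.81 to 25.0% of those of TM, whose bars look more like the autosomes.

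Repeat-masked sequence moved the other way. In the equal-sized lists, 15.6, 29.8, 15.4 and 13.6% of TE summits and 52.2, 68.6, 67.9 and 57.4% of TM summits lay in sequence that the reference marks as repeats, against 33.5% of the autosomal bases. The groups did not overlap, and TE replicate 2 and TM replicate 3 had 29.8 and 67.9%. With all peaks the shares were 22.5% ± 8.64 in TE and 40.5% ± 5.40 in TM (SD, n = 4), and the groups overlapped (exact permutation test, p = 0.0571). Away from promoters alone, the shares were 55.4% ± 9.10 in TE and 67.3% ± 3.52 in TM (SD, n = 4), which did not pass (exact permutation test, p = 0.0571). With all peaks, they were 44.3 and 43.3% (exact permutation test, p = 0.83). The very top of every list was repeat-rich. Among the top 100 of each list, 56 to 69% were repeat-masked in TE and 81 to 86% in TM. By 500 peaks, the TE share had dropped to between 20 and 32%, whereas that of TM stayed between 62.4 and 79.6%. When repeat-masked summits were left out before lists of 1920 peaks were taken, an alternative added after seeing the data, promoters made up 85.4% ± 5.81 of TE and 25.7% ± 12.7 of TM lists (SD, n = 4; exact permutation test, p = 0.0286).

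**Figure D2:**
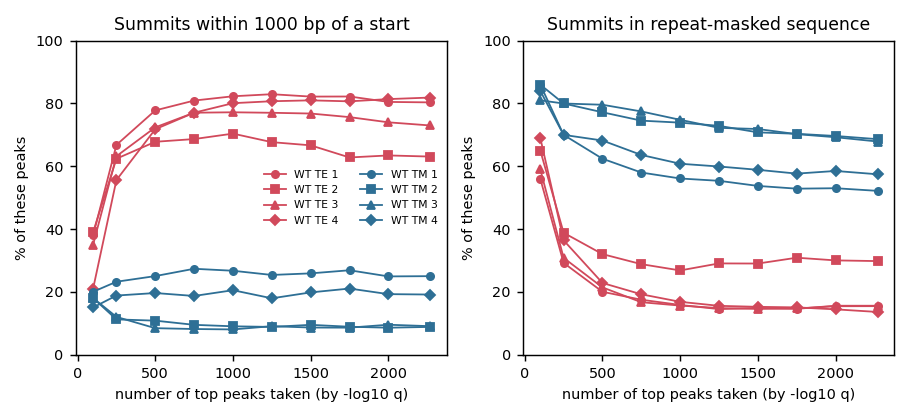
Percent of summits within 1000 bp of a start (left) and in repeat-masked sequence (right) among the top peaks of each list, against the number of peaks taken in order of −log10 q. From 500 peaks on, TE libraries lie between 62.8 and 83.0% promoters and TM libraries between 8.0 and 27.3%.

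Peaks recurred between replicates in TE more than in TM. With all peaks, 94.6% of the regions with a TM peak had one in a single TM library, and 179 regions (0.153%) were held by all 4. In TE, 80.9% of regions were held by 1 library and 738 (2.79%) by all 4. In equal-sized lists, 253 regions (4.25%) were held by all 4 TE libraries and 75 (0.887%) by all 4 TM libraries. Regions of single TE libraries lay at promoters in 19.7% of cases and those of 3 TE libraries in 91.1%. For TM the same shares were 9.91 and 59.0%. In regions held by all 4 libraries the shares were lower again, at 84.6% in TE and 39.7% in TM. Of the 75 TM regions that recurred in all libraries of the equal-sized lists, 85.3% were repeat-masked and 97.3% also had a TE peak.

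Effector-only regions were mainly promoters. With all peaks there were 79, which is 2.86% of the 2763 regions held by at least 4 of the 8 libraries, and 3 memory-only regions, 0.109%. In equal-sized lists there were 107 effector-only regions, 21.9% of 488, and 2 memory-only regions, 0.41%. The definition uses the contrast itself, so these counts carry no test. Of the 79, 64 lay at protein-coding promoters, 4 at other promoters, 2 in introns and 9 between genes. Of the 107, 101 lay at protein-coding promoters, 1 at another promoter and 5 between genes. Beside 84.6 and 71.1% of all regions that all 4 TE libraries held, promoters made up 86.1 and 95.3% of these sets. Repeat-masked summits made up 2.53 and 3.74%, and mean GC content was 64.8 and 64.5%. The sets hardly coincide, since 10 regions were in both, 12.7% of the first and 9.35% of the second. In the first set the weakest of the 4 summits had a median pileup of 9 fragments, with a range from 5 to 15. The counts rest on single libraries. Without TE replicate 3, the library with the shortest list, the effector-only counts were 290 and 235, without TM replicate 1 they were 206 and 138, and without TM replicate 3 there were 59 memory-only regions with all peaks. Leaving out TE replicates 2 or 4 or TM replicate 4 gave 143, 152 and 155 effector-only regions with all peaks, and for TE replicates 2 and 4 gave 228 and 195 with equal-sized lists. Memory-only regions with all peaks numbered 36, 52 and 40 without TM replicates 1, 2 and 4, and 5 and 15 without TE replicates 1 and 2. In equal-sized lists they numbered 7 without TE replicate 2 and 9 without TM replicate 4.

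The effector-only promoters of the equal-sized lists mostly had TM peaks too when the full lists were searched. Only 10 of the 107 had no TM peak in the full lists, whereas 33 had one in 1 TM library, 48 in 2, 14 in 3 and 2 in 4. The Mad2l1 promoter (chr6:66535121-66535631), of a protein of the spindle checkpoint, had summit pileups of 16, 14, 20 and 22 fragments in TE and of 10 in TM replicate 1, with no peak in the other TM libraries. Its fold enrichment over local background was 6.91, 7.64, 7.62 and 7.01 in TE and 7.94 in that TM library. The promoter of Cenpf (chr1:189687922-189688355), a kinetochore protein, was enriched 8.61, 9.77, 7.25 and 7.67-fold in TE and 5.14 and 6.49-fold in TM replicates 1 and 4. Hmgcs1 (chr13:119690055-119690623) and Idi1 (chr13:8885526-8886002) encode enzymes of the mevalonate pathway that leads to cholesterol. The Hmgcs1 promoter was enriched 9.58, 6.84, 6.92 and 7.17-fold in TE and 6.27, 4.92 and 5.68-fold in TM replicates 1, 2 and 4, and that of Idi1 6.85, 7.26, 8.55 and 7.02-fold in TE and 6.44-fold in TM replicate 1. These regions were chosen for high fold enrichment in TE and absence from the TM top lists, so a higher value in TE is favoured by the choice, and TM values exist only where a peak was called, so the groups cannot be compared by them. The rest of the 12 strongest in the equal-sized lists were the promoters of Inpp5f, a phosphoinositide phosphatase, Pdcl, Aldh9a1, Mmd and Glrx5, an iron-sulphur cluster protein, those of the vesicle fusion proteins Sec22c and Stx6, and a site 22312 bp from the start of the RNA gene Gm23255. All of these had a peak in 1 to 3 TM libraries in the full lists.

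With all peaks, no TM library held the region at any of the 79 by definition, and the named ones are those of the highest minimum fold enrichment in TE. The promoter of Zyg11b (chr4:108300978-108301290), which encodes a substrate receptor of a ubiquitin ligase, had pileups of 18, 15, 23 and 18 in TE. The promoter of Hdac1 (chr4:129542655-129542942), a histone deacetylase, had 19, 12, 19 and 20. That of Ndufv3 (chr17:31519938-31520232), a subunit of respiratory complex I, had 13, 11, 20 and 18. These stacks stand beside a median summit pileup over all peaks of 12 ± 3.56 in TE and 5.25 ± 0.500 in TM (SD, n = 4; exact permutation test, p = 0.0286), and the part of depth in these regions was not tested. Further promoters in this set were those of Arl16, a small GTPase, Vps4a, an ATPase of membrane scission, Pcnx4, Mettl22, the long non-coding RNA Dancr, and a shared start of Zfp706 and Gm26766.

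Effector-only sites away from promoters were few. The site 18101 bp from Scd1 (chr19:44388386-44388866), the stearoyl-CoA desaturase, had 16, 8, 18 and 19 fragments in TE and no peak in TM or in any TPdh-/- library. Other such sites lay 33113 bp from Pum2, 22951 bp from Rps6ka1, 21757 bp from Cmtm6 and 1359 bp inside Nr1d1, a circadian repressor. Among the 79, 65 had a peak in at least 1 TPdh-/- TE library and 66 in at least 1 TPdh-/- TM library, while 0 had one in all 4 TPdh-/- TE and 5 in all 4 TPdh-/- TM libraries. The TPdh-/- lists held 32144 to 84359 autosomal peaks each, and these counts were not set against other regions.

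Of the 3 memory-only regions, the stronger ones, in Litaf and Pcnx2, lay in repeats. The region in an intron of Litaf, 457 bp from an annotated start (chr16:10975068-10975248), had pileups of 140, 144, 226 and 123 fragments in TM and no peak in TE. It was also held by 4 TPdh-/- TE and 2 TPdh-/- TM libraries. Its sequence repeats as shown above and shares a run of 60 bases with at least 1 of 11 regions at the start of chromosome 9. These 11, all repeat-masked, were held by all 8 libraries with pileups of up to 1502 to 1767 in TE and 1770 to 1913 in TM. The region in an intron of Pcnx2 (chr8:125779071-125779237) had pileups of 27, 24, 49 and 25 in TM, and that in an intron of Lmbrd1 (chr1:24759587-24759891), a lysosomal protein of cobalamin transport, had 9, 5, 7 and 7. No TPdh-/- library held either. The Litaf and Pcnx2 summits are repeat-masked and the Lmbrd1 summit is not. Without repeat-masked summits, the equal-sized lists held no memory-only region.

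**Figure D3:**
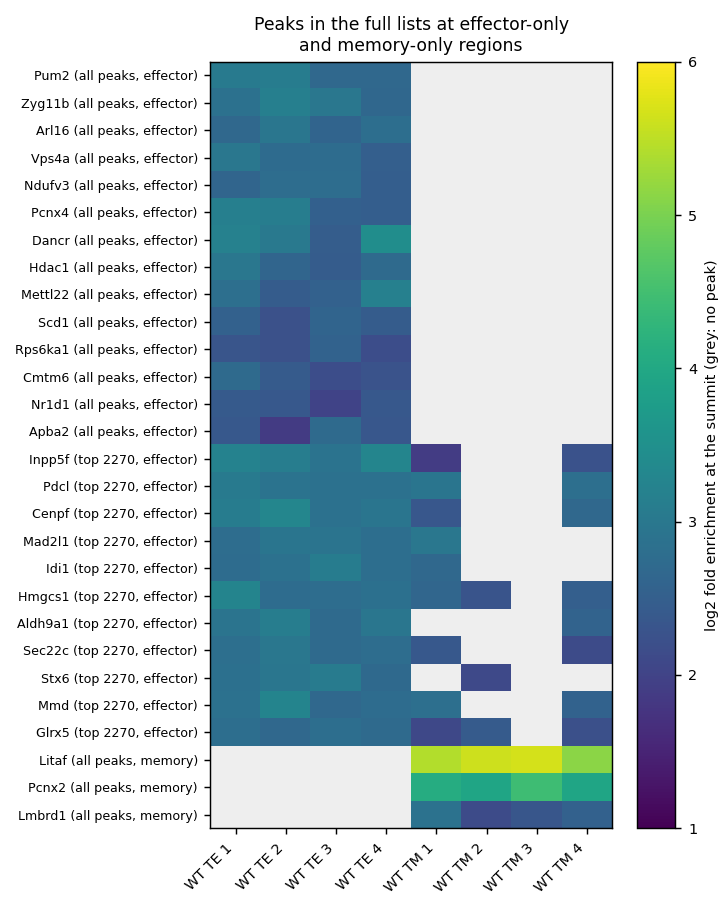
Fold enrichment, on a log2 colour scale, of the peak of each library in its full list at named effector-only and memory-only regions, with the list that defined the region in brackets and grey where no peak was called. Unnamed transcripts, Rny3 and 1 further region are left out. Of the regions taken from the top 2270 peaks, most also show colour in 1 to 3 TM columns, and Litaf stands out with 35.0 to 51.1-fold in TM.

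When 3 libraries sufficed and the other group still had to lack a peak, there were 455 effector-only and 177 memory-only regions with all peaks, and 495 and 11 in equal-sized lists. The wider effector sets were promoters in 86.6 and 94.1% of cases. The wider memory sets were promoters in 11.9 and 18.2% and repeat-masked in 64.4 and 81.8%. Their weakest pileup had a median of 5 fragments with all peaks, against 9 for the wider effector set, and of 15 against 13 in equal-sized lists.

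No gene could pass a correction over all genes. For genes, a promoter counted as held where any part of a peak, not only its summit, lay within 1000 bp of a start. Of 20807 autosomal protein-coding genes, 11269 had a promoter held by at least 1 library. None passed Fisher's exact test of TE against TM libraries after Benjamini-Hochberg adjustment (0%), since 4 against 0 libraries gives no less than 0.0286. Unadjusted, 60 passed, 58 held by all TE and no TM library (0.515%) and 2 by all TM and no TE library (0.0177%), namely Phf21a and Tsc1, the latter a brake on mTORC1. In equal-sized lists, the counts were 121 (2.45%) and 1 (0.0202%), the latter being Litaf. When the whole gene with 5000 bp on each side was searched with all peaks, the direction of the count turned, with 13 genes (0.0744%) in TE and 245 (1.4%) in TM. The 245 were long, with a median of 92.6 kb against 22.6 kb for all genes held, and the 13 had a median of 14 kb. A lead of at least 3 libraries was held by TE for 1.57% and by TM for 8.84% of the genes in this search. In equal-sized lists this search gave 134 genes in TE (1.7%) and 15 in TM (0.191%), with leads of at least 3 libraries for 9.13 and 1.03%, and the 15 had a median length of 871 kb. They include Rbfox1, Lrp1b and Pcdh15, very long genes known for roles in nerve or sensory cells. These 3 genes, Phf21a and Tsc1 were named after their values were seen.

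Promoters of most gene families were held by more TE than TM libraries in the equal-sized lists, as were promoters in general. In equal-sized lists a mean of 9.20% of all protein-coding promoters was held by a TE library and 1.65% by a TM library. A list of 33 genes held the pyruvate dehydrogenase complex, the TCA cycle and related enzymes, some of them cytosolic. Its values were 39.4, 30.3, 30.3 and 42.4% in TE and 6.06, 3.03, 3.03 and 6.06% in TM. For 37 cell cycle genes they were 21.6, 24.3, 27.0 and 32.4% in TE and 2.70, 0, 0 and 0% in TM. With all peaks the groups overlapped in both lists. The shares of the pyruvate dehydrogenase and TCA list were then 57.6, 66.7, 30.3 and 66.7% in TE and 51.5, 15.2, 18.2 and 48.5% in TM, with 4 of 26 held genes ahead by 3 libraries in TE and 0 in TM. Those of the cell cycle list were 43.2, 59.5, 27.0 and 43.2% in TE and 62.2, 16.2, 5.41 and 40.5% in TM, with 4 of 33 ahead in TE and 1 in TM. The highest value for the cell cycle was that of a TM library. Beside these counts, 4.93 and 0.692% of all genes held were ahead. No family shown here was tested for standing apart from the other genes. Of all genes held in the equal-sized lists, 12.3% were held by at least 3 more TE than TM libraries and 0.0405% by at least 3 more TM libraries. In the pyruvate dehydrogenase and TCA list, 7 of 19 held genes were in the first class (median difference over the list 1 library, against 0 over all genes). They were Aco1 (4 TE and 0 TM libraries), Cs, the citrate synthase (4 and 1), and Acly, Fh1, Idh1, Mdh1 and Pdp2 (3 and 0 each). Acly cleaves citrate to acetyl-CoA in the cytosol, where Aco1, Idh1 and Mdh1 also act, and Pdp2 is the phosphatase that activates pyruvate dehydrogenase. Of 22 held cell cycle genes, 5 were in that class, with Ccna2 (cyclin A2) and Mad2l1 at 4 and 0 and Cdkn2c, E2f3 and Mcm4 at 3 and 0. Among centromere and kinetochore genes, 5 of 32 were in it, with Cenpf, Cenpu and Kif24 at 4 and 0.

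Fatty acid oxidation genes, which the memory state is known to use, were held by more TE than TM libraries too in the equal-sized lists. Of 9 held in equal-sized lists, Acaa2, Acadm and Etfdh were held by 3 TE and no TM library and none by more TM libraries by that margin. With all peaks, the mean share was 38.1% in TE, with a range from 23.8 to 52.4%, and 33.3% in TM, with a range from 4.76 to 61.9%. The groups overlapped widely. At promoters, Slc25a20 (4 and 1), the carnitine carrier, and Hadha (0 and 3), a subunit of the trifunctional protein, differed by 3 or more. In the gene window none was ahead in TE (0), and Hadh (1 and 4) and Acadvl (0 and 3), both dehydrogenases of this pathway, were ahead in TM, with mean shares of 47.6% in TE and 54.8% in TM, beside 28.8 and 42.5% for all genes. Over all genes held, 4.93% were ahead by 3 in TE and 0.692% in TM at promoters, and 1.57 and 8.84% in the gene window. Cytosolic ribosomal protein promoters were ahead in TE for 7 of 37 held in equal-sized lists, for example Rplp0 and Rps23 at 4 and 0, those of the respiratory chain and ATP synthase for 4 of 44, those of mitochondrial ribosomal proteins for 0 of 28 and those of glycolysis for 1 of 8, Pfkl, beside the 12.3% of all held genes in these lists. Genes of other tissues served as a contrast. Promoters of 1459 olfactory and vomeronasal receptor genes were held at 0.428% by a TE list and at 3.41% by a TM list with all peaks, the reverse of the order for all protein-coding genes (19.6 and 16.4%).

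**Figure D4:**
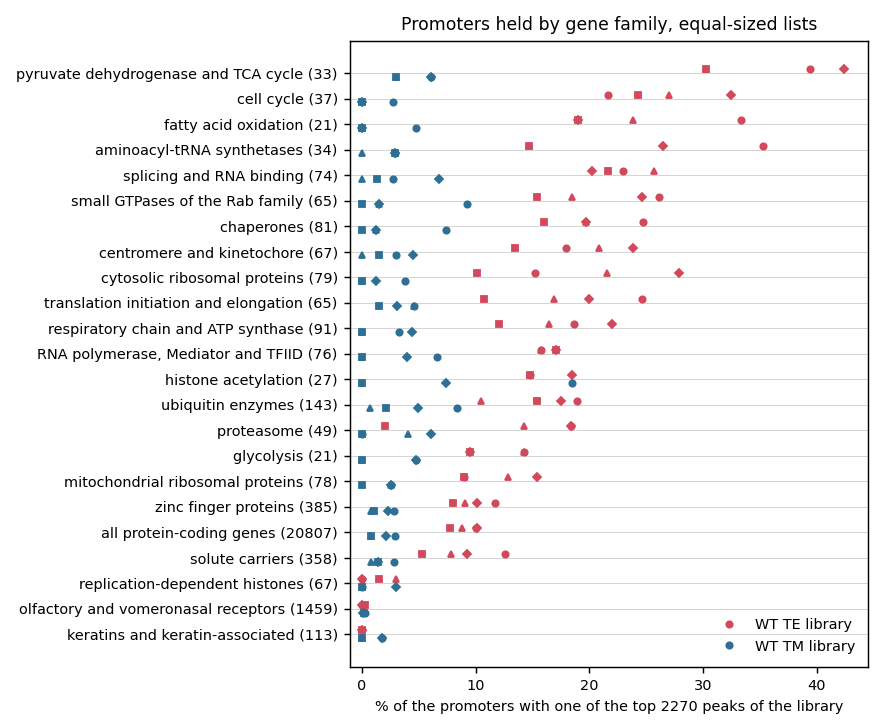
Percent of the promoters of each family, with its number of genes in brackets, that held 1 of the top 2270 peaks of a library, 1 point per library. TE points lie right of TM points in most families, with 30.3 to 42.4% against 3.03 to 6.06% for the pyruvate dehydrogenase and TCA list, and both lie near 0 for receptor genes of the nose and for keratins.

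Promoters of genes that define the cell types were held by some libraries and not by others. With all peaks, the mean share of 12 T cell genes was 18.8% in TE and 18.8% in TM, that of 12 effector genes 12.5 and 18.8% and that of 13 memory genes 11.5 and 17.3%, beside 19.6 and 16.4% for all protein-coding genes. In equal-sized lists the same shares were 8.33 and 6.25% for T cell genes, 6.25 and 2.08% for effector genes and 0 and 0% for memory genes, beside 9.20 and 1.65%. With all peaks, promoters of Cd3e, Cd2 and Cd28 had a peak in no library of either group, those of Cd3d in 1 TE and 3 TM libraries, and those of Cd8b1 in 2 and 2. Lck, the kinase at the T cell receptor, was held by 3 TE and no TM library. Of the 12 T cell genes, 8 had a promoter peak in at least 1 library and none in all 4 of a group, so the labelled cell type could not be checked from the lists. Of the effector list, Gzmb, Ifng, Gzma, Gzmk, Klrg1 and Cx3cr1 promoters were held by none, Prf1 by 2 TE and 1 TM libraries, Tbx21 (T-bet) by 0 and 2 and Zeb2 by 2 and 4. Of the memory list, Tcf7, Bcl2 and Id3 promoters were held by none, Foxo1 and S1pr1 by 0 and 2, Eomes by 2 and 0, and Klf2 by 2 and 2. In the window of the gene and 5000 bp on each side, Foxo1 was held by 0 TE and 3 TM libraries and Eomes by 3 and 1. No gene of these lists reached 4 against 0. In equal-sized lists, no promoter of the 13 memory genes was held in any library. None of the B cell or myeloid promoters was held in equal-sized lists. With all peaks, 3 of 6 B cell promoters were held. Every TE library held 0% of them, and TM replicates 1 to 4 held 50, 0, 0 and 0%. Of 6 myeloid promoters 2 were held, at 0% in TE and 16.7, 16.7, 0 and 0% in TM replicates 1 to 4. Of 3 NK cell promoters 1 was held, that of Eomes, which is also in the memory list, by 0 to 33.3% in TE and 0% in TM, and those of both erythroid genes were at 0 in all libraries. In the gene window with all peaks, where 8.84% of all held genes were ahead by 3 libraries in TM and the mean share of all genes was 28.8% in TE and 42.5% in TM, Pax5 of B cells was held by 1 TE and 4 TM libraries, Cd79a by 0 and 3 and Spi1 of myeloid cells by 0 and 3, while in equal-sized lists no library held any of these 3. Their part in the difference between TE and TM was not tested. Among AP-1 genes, Bach1, a repressor that binds such sites, was held by 4 TE and 1 TM libraries at its promoter and in the gene window, whereas Batf and Maf were held by 1 TE and 4 TM libraries in the gene window, 2 of 12 genes beside the same 8.84%.

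Motifs away from promoters were more frequent in TE. In equal-sized lists, the share of such peaks with AP-1 (TGANTCA) was 7.19% ± 1.27 in TE and 3.72% ± 0.561 in TM (SD, n = 4), with 6.0% of autosomal windows between them. RUNX was in 6.90% ± 1.02 and 4.18% ± 0.794, against 4.73% of windows. In TE replicate 2 and TM replicate 3, AP-1 was in 6.8 and 3.83% and RUNX in 6.21 and 3.73%. Of 16 motifs, 11 differed (exact permutation test, adjusted p = 0.0416 for each), 10 of them higher in TE. These were AP-1, RUNX, ETS (1.79 and 0.364%), KLF/SP (5.01 and 1.86%), NFY (8.53 and 4.51%), the MYC and USF type E-box CACGTG (3.83 and 2.46%), the CRE TGACGTCA (0.577 and 0.0389%), YY1 (AAGATGGCG, 0.187 and 0.0540%), NRF1 (1.35 and 0.331%) and CTCF (0.340 and 0.0903%). The IRF motif was higher in TM, at 3.71 against 2.09%. TCF/LEF (CTTTGAT) was in 2.24 and 2.34%, the forkhead motif of FOXO (TGTTTAC) in 2.27 and 2.36%, T-box (AGGTGTGA) in 1.07 and 0.717% and STAT (TTCNNNGAA) in 4.37 and 4.24%. None of these 4, nor NF-kB, passed the test (exact permutation test, adjusted p from 0.229 to 1). Leaving out TE replicate 1 or any TM replicate left none of the 16 past the adjusted threshold. Autosomal windows held E-box at 1.98%, CRE at 0.112%, YY1 at 0.208%, IRF at 3.27%, NRF1 at 0.0585%, TCF/LEF at 4.04%, FOXO at 2.99%, T-box at 0.779% and STAT at 7.37%. In a 100 bp window, none of the 16 passed after adjustment and 5 did unadjusted. Outside repeats the lowest adjusted p was 0.0508, with 9 higher in TE unadjusted and IRF no longer among the differences. AP-1 was then in 12.2% ± 1.03 of TE and 5.29% ± 2.10 of TM peaks and RUNX in 10.7% ± 1.45 and 4.81% ± 1.21 (SD, n = 4), so that of these 2 motifs only AP-1 had a TM mean below the share of all autosomal windows.

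**Figure D5:**
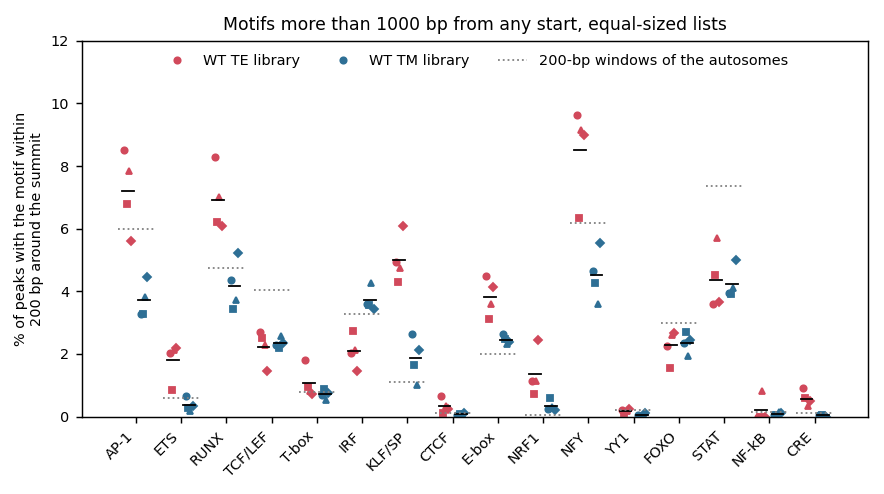
Percent of peaks more than 1000 bp from any start, within the top 2270 of each library, that hold each of 16 motifs within 200 bp around the summit. Points are libraries, black bars group means and dotted lines the share of autosomal windows of that size. TE means of AP-1 (7.19%) and RUNX (6.90%) lie above the dotted line and TM means (3.72 and 4.18%) below it.

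At promoters, 8 of the 16 motifs differed unadjusted in equal-sized lists and none after adjustment (exact permutation test, lowest adjusted p = 0.0571). KLF/SP was in 34.2% of TE and 17.6% of TM promoter peaks, NFY in 24.5 and 13.4%, ETS in 17.1 and 7.99% and NRF1 in 12.6 and 4.88%. At protein-coding starts of the autosomes the shares were 12.4, 8.54, 8.16 and 3.8%. TE values lay above and those of TM nearer to these. With promoter peaks of the full lists, 12 motifs passed (exact permutation test, adjusted p = 0.0381), 8 higher in TE and 4 in TM.

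Where all 8 libraries held a region, accessibility could be compared directly. There were 92 such regions, 32 at promoters and 59 repeat-masked. With the log2 summit pileup centred on the median of the 92 in each library, 1 region passed (1.09%, limma, adjusted p = 0.0171) and 31 did unadjusted. It lies 2090 bp from the start of the pseudogene Gm18604 (chr17:36231311-36231604), in GC-rich sequence outside repeats. Its pileups were 176, 103, 205 and 215 in TE and 31, 48, 64 and 40 in TM, and the centred log2 difference of TM minus TE was -1.41 ± 0.278 (SE, n = 4). Of the 33 regions outside repeats, 3 had a higher centred value in TM, with a median log2 difference of -0.62. Of the 59 repeat-masked regions, 37 were higher in TM, with a median of 0.23, against -0.22 over all 92. Without centring, on pileups divided by background coverage, 37 calls were higher in TM and 0 in TE, against 0 and 1 with centring. The median log2 difference over all regions became 0.74. Each library's values moved by a constant of its own, so the group difference shifted alike in all 92 regions. Without TM replicate 1 there were 16 calls, without TE replicate 2 there were 7 and without TM replicate 3 there were 3. Without TE replicates 1, 3 or 4 or TM replicate 4 there was none (0). Over the 396 regions held by at least 3 libraries of each group, with centring, 15 calls were higher in TM and 1 in TE. The calls thus depended on the shift that the scale sets for all regions and on which regions were taken. With centring of the 92, the direction rested on 1 call.

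The difference between TM and TE was not the same in WT and TPdh-/- cells. In lists of the same length, promoters made up 14.3% ± 8.55 of TPdh-/- TE and 23.4% ± 8.96 of TPdh-/- TM lists (SD, n = 4), a difference of 9.12 percentage points. The WT difference minus that in TPdh-/- cells was -68.2 points (permutation of residuals over 4900 arrangements, p = 0.000408, the smallest that this procedure can give). Before cutting, the TPdh-/- lists held 32144 to 84359 autosomal peaks each, and the part of depth in this difference was not tested. AP-1 away from promoters was in 4.60 and 4.97% of TPdh-/- TE and TM peaks. All TPdh-/- libraries, like the WT TM libraries, lay below the 4 WT TE libraries in promoter share, and the highest of them was at 32.5%.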

How the data were processed

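ATAC-seq libraries were made from cultured mouse CD8+ T cells. Per the methods, the authors trimmed reads with Trimmomatic 0.39, aligned them with BWA 0.7.17 to GRCm38, kept only reads with a single genomic placement, by discarding those with tags for alternative or split alignments, removed reads in ENCODE blacklist regions, and called peaks per library with MACS2 2.2.7.1 on paired fragments with the mouse genome size. Any control track is not given in the sources used here. In the deposited peak lists the authors give the summit's fold enrichment over local background, −log10 p-values and −log10 q-values, and a score, which was not used. The members, gene lists, motifs and tests were chosen with earlier results of these data known.

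Peaks on X, Y or the mitochondrion, 3633 in the 8 libraries, were left out. Pileup and background were solved from fold enrichment and p-value, with a pseudocount of 1. A whole-number pileup gave back the deposited −log10 p within 0.001 for 99.7 to 99.99% of peaks per library. Peaks overlapping by at least 1 bp were merged. Starts and classes came from the GENCODE M21 annotation of GRCm38, and the genome sequence with its repeat mask from RefSeq. Motif matches were counted in 200 bp around each summit on both strands. Groups were set by sample titles and compared with two-sided exact permutation tests over 70 arrangements (scipy 1.17.1), with Fisher's exact test per gene and with limma 3.58.1 for regions that all 8 libraries held, with Benjamini-Hochberg adjustment. Regions held by 1 group were named if 12 or fewer, otherwise the 12 of highest minimum fold enrichment and up to 8 more away from promoters. Genes were named from the lists where library counts differed by at least 3, and all T cell, effector and memory genes could be named. Procedures were tested on simulated data. Some items are not reported here. The depth per library is known here only as background coverage.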

Additional observations from a re-analysis of the deposited data

Results flagged for a closer look

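Of 210 groups of 4 libraries examined, 13 held a library that stood apart from the other 3 by Dixon's criterion, and chance flags about 5% of groups. Background coverage was 0.572 fragments per base in TM replicate 3. In TE replicate 2, 29.8% of the top peaks were repeat-masked and 0.835% of those away from promoters held the ETS motif, while 0.816% held NF-kB in TE replicate 3. In equal-sized lists, TM replicate 1 lay above the other TM libraries for promoters of fatty acid oxidation (4.76%), the cell cycle (2.70%), chaperones (7.41%) and Rab GTPases (9.23%), and TM replicate 4 for replication-dependent histones (2.99%). TM replicate 2 lay below the others for mitochondrial ribosomal proteins and TM replicate 3 for aminoacyl-tRNA synthetases, both at 0%. TE replicate 4 held 18.5% of histone acetylation promoters in these lists, above the other TE libraries, and TE replicate 3 held 16.5% of respiratory chain promoters with all peaks, below them.

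Differences between TM and TE in equal-sized lists were not the same in WT and TPdh-/- cells. The part of depth in this was not tested. The WT difference minus the TPdh-/- difference was -68.2 percentage points for promoters, 55.2 for repeat-masked summits and -3.84 for AP-1 away from promoters (permutation of residuals, adjusted p = 0.000544 for each), and -3.60 for RUNX (permutation of residuals, adjusted p = 0.000816).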

How the results depend on the processing

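The promoter share in equal-sized lists kept its direction and its p of 0.0286 (exact permutation test) under all alternatives except the replicate block. When single replicates were left out, the log2 difference in peak number ranged from 1.54 to 2.55, and passed the test without TE replicate 2. The difference in promoter share ranged from -54.3 to -39.5 points with all peaks (exact permutation p = 0.0571 without any one TM replicate) and from -62.9 to -56.7 in equal-sized lists. Measures of annotation that differed numbered 6 to 7, motifs away from promoters 0 to 11 and at promoters 0. Effector-only regions ranged from 85 to 290 with all peaks and from 108 to 235 in equal-sized lists, memory-only regions from 3 to 59 and from 2 to 9, and calls among shared regions from 0 to 16.

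Whether replicate numbers pair the libraries could not be decided from the few shared regions, most of them repeat-masked. There the deviations of same-numbered TE and TM libraries correlated at 0.474, -0.259, 0.394 and 0.196. Not every library correlated best with its own number. With a replicate block the promoter differences were -44.9 and -59.1 points with p = 0.125, the smallest that the 16 arrangements of an exact permutation test allow. No measure of annotation and no motif (0 and 0) could then pass, and 2 shared regions did.

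Away from promoters, 0 motifs passed in a 100 bp window, 0 with all peaks and 0 with repeat-masked summits left out, against 11, and 12 passed at promoters with all peaks, against 0. With all peaks, effector-only regions numbered 455 when 3 libraries sufficed, 37 with −log10 q of at least 5 and 44 when each peak had to cover at least 50% of its region. In equal-sized lists they numbered 495, 10 when no TM peak in the full lists was allowed, 31 with that coverage, and 568 in longer lists without TE replicate 3. Memory-only regions numbered 177 and 11 when 3 libraries sufficed and 0 in equal-sized lists without repeats. Among shared regions, 0 passed on fold enrichment, 37 without centring and 16 of the 396 regions held by at least 3 libraries of each group, 15 of them higher in TM. Coverage, repeat and longer-list alternatives were chosen after seeing the data. Requiring 50% of a peak to lie in its region changed no count, since merged regions contain their peaks. Causes were not tested. Depth differs between the groups, and the weakest summit of the 79 effector-only regions held 5 to 15 fragments.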
